A study of Homo sapiens with 18 samples.

Results

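The BCL2 family genes BCL2, BCL2L1, MCL1, BAX, BAK1, BCL2L11, BID, BAD, BBC3 and BNIP3 were followed in human SH-SY5Y neuroblastoma cells after a short exposure to cocaine. The members were taken by name, as all probe sets that the array's annotation assigns to 1 of these 10 genes alone, and they numbered 32 of the 54675 probe sets on the array, for 9 of the 19775 genes that have such a probe set. The only probe set listed for BBC3 also lists 2 microRNA genes, so no value is given for BBC3. The cells had been differentiated with retinoic acid and then kept without it for a day, in all groups, and were exposed for 30 min to 0, 1 or 5 μM cocaine. RNA was taken at 6 or 24 h after exposure, with 3 Affymetrix U133 Plus 2.0 arrays per dose and time, each hybridized with a pool of 3 dishes, so a value is an average over pooled dishes of 1 cell line and the arrays of a dose differ by culture and by array.

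Proteins of the BCL2 family decide whether the outer membrane of the mitochondrion is opened to release cytochrome c, the step that commits most cells to apoptosis. BCL2, BCL2L1 (BCL-XL) and MCL1 hold the membrane closed, BAX and BAK1 form the pores, and the BH3-only proteins BCL2L11 (BIM), BID, BAD and BBC3 (PUMA) set them free or activate them. Neurons rely on the survival members during differentiation, and many BCL2 family proteins are controlled after translation, by phosphorylation, cleavage or degradation, which arrays of RNA do not show.

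Upstream stretches of the 2 genes that the results turn on, BCL2 and BCL2L11, are shown here because regulators of both are well known. BCL2 is a target of CREB, which binds cAMP response elements, and BCL2L11 is a target of FOXO3. In the 250 bases before the RefSeq start (GRCh38.p14, both strands searched), the CRE core TGACG matched once for BCL2 and not for BCL2L11, and the FOXO site TGTTTAC matched once for BCL2L11 and not for BCL2. Each line runs 5′ to 3′ on the gene's strand, with the match in capitals, at chr18:63319977-63320006 (minus strand) for BCL2 and at chr2:111120680-111120709 (plus strand) for BCL2L11.
BCL2: cctgccggcggcCGTCAgcgctcggagcgg
BCL2L11: gagttactccgGTAAACAcgccagggacgg
The matches, each on the opposite strand to the letters searched, begin 225 bases before the start of BCL2 and 223 bases before that of BCL2L11. Of 35116 upstream windows of this length, 21.2% hold the CRE core and 2.98% the FOXO site, and a match is a description of the letters only.

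Before the doses are compared, some arrays have to be set apart. Among the 9 neuroblastoma markers with a probe set of their own, 8 were above the signal threshold of log2(40), 5.32, on all 18 arrays. TH, the tyrosine hydroxylase gene, was above it on none, with 3.35 to 4.0. The study used TH protein, assessed by western blot, as a dopaminergic marker of these cells, and arrays do not measure protein. Genes induced by retinoic acid differed among the untreated arrays of 6 h. CYP26A1, which encodes an enzyme that degrades retinoic acid, had log2 signals of 5.01, 10.69 and 10.99 on untreated arrays 1, 2 and 3, 5.15, 4.95 and 5.61 at 1 μM, and 5.20, 5.39 and 5.53 at 5 μM. Across the list of 4 such genes (CYP26A1, CYP26B1, DHRS3 and RARB), the mean per array was 7.18 to 10.93 in untreated cells, 7.11 to 7.36 at 1 μM and 7.18 to 7.35 at 5 μM, and at 24 h CYP26A1 was also high on untreated array 3, at 9.55. The arrays of 6 h also differed by dose in a hybridization control (BioD minus Cre spike-in), with -0.74 to -0.68 in untreated cells, -1.16 to -1.15 at 1 μM and -1.25 to -1.14 at 5 μM. The part of these differences in the member values cannot be told apart from the dose. Many of the 6 h results that turn on untreated arrays are given with and without arrays 2 and 3. Untreated array 3 of 24 h was kept in all fits, except where single arrays were left out. A fit without arrays 2 and 3 leaves 1 untreated array of 6 h, which is then assumed to vary like the arrays of the other groups. Markers of the substrate-adherent (mesenchymal) cells of the line (VIM, FN1, COL1A1, COL3A1, SNAI2, TAGLN and CD44) were above the threshold on all 18 arrays for 7 of 7 genes. Their mean per array at 6 h was 9.02 to 9.73 in untreated cells, 9.19 to 9.75 at 1 μM and 9.35 to 9.72 at 5 μM, and VIM, which encodes the intermediate filament vimentin, had 12.38, 11.66 and 11.50 on untreated arrays 1, 2 and 3, 12.29 to 12.45 at 1 μM and 12.49 on each array at 5 μM, with untreated arrays 2 and 3 below all others. The markers did not share a pattern on untreated arrays 1, 2 and 3. CD44 fell like VIM (8.48, 7.89 and 7.39). SNAI2 (9.11, 9.54 and 9.64) and FN1 (10.79, 11.16 and 11.05) were higher on arrays 2 and 3 than on array 1. COL1A1 (8.69, 8.67 and 7.10), COL3A1 (10.82, 10.58 and 9.41) and TAGLN (7.82, 7.91 and 7.09) were low mainly on array 3. The part of these markers in the member values was not tested.

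Each member with a value had at least 1 probe set above the threshold at both times. At 6 h, 26 of the 32 probe sets were kept, and at 24 h, 27, the addition being 215037_s_at of BCL2L1. The 6 not kept at 6 h were 206665_s_at and 215037_s_at of BCL2L1, 208536_s_at and 222343_at of BCL2L11, and 200796_s_at and 227175_at of MCL1. Signals of different probe sets depend on their probes and are not compared as amounts of RNA. The brightest probe set of each gene had a mean over the 9 arrays of 6 h of 11.93 for MCL1 (200797_s_at), 10.94 for BNIP3 (201849_at), 10.52 for BCL2 (203685_at), 9.39 for BCL2L11 (225606_at), 9.16 for BID (227143_s_at), 8.77 for BAX (208478_s_at), 8.43 for BAD (209364_at), 7.48 for BCL2L1 (212312_at) and 6.50 for BAK1 (203728_at). MCL1 was brighter than 98.7% of all probe sets at 24 h, BNIP3 brighter than 97.1% and BCL2 brighter than 96.3%. The values of 6 and 24 h were normalized separately, with array medians between 4.96 and 5.01 for 6 h but between 5.30 and 5.35 for 24 h, so levels are compared only within a time.

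No member probe set passed the test for 5 against 0 μM at 6 h. With limma's moderated test and an adjusted p under 0.10, 0 of 26 were called, where 2.98% of the 22455 probe sets tested were (352 higher and 318 lower). The lowest adjusted p among members was 0.137, and 4 of the 26 had an unadjusted p under 0.05, against 3871 of the 22455. The median log2 fold change was -0.01 over the 26, with 13 above and 13 below 0, against -0.02 over all tested. With the replicate number as a block, which paired the arrays, 3 of the 26 passed, 1 higher and 2 lower, against 18.6% of all probe sets. These were BCL2L11 225606_at (adjusted p = 0.0475) and BCL2 203685_at (adjusted p = 0.0650), both lower at 5 μM, and BCL2L11 1553096_s_at (adjusted p = 0.0711), higher at 5 μM. With the block and without untreated arrays 2 and 3, 0 of the 26 passed, against 2.6% of all probe sets, and the fold changes of the 3 were then -0.13 (225606_at), -0.11 (203685_at) and 0.36 (1553096_s_at, adjusted p = 0.111), the last being larger than its 0.23 over all arrays.

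**Figure D1:**
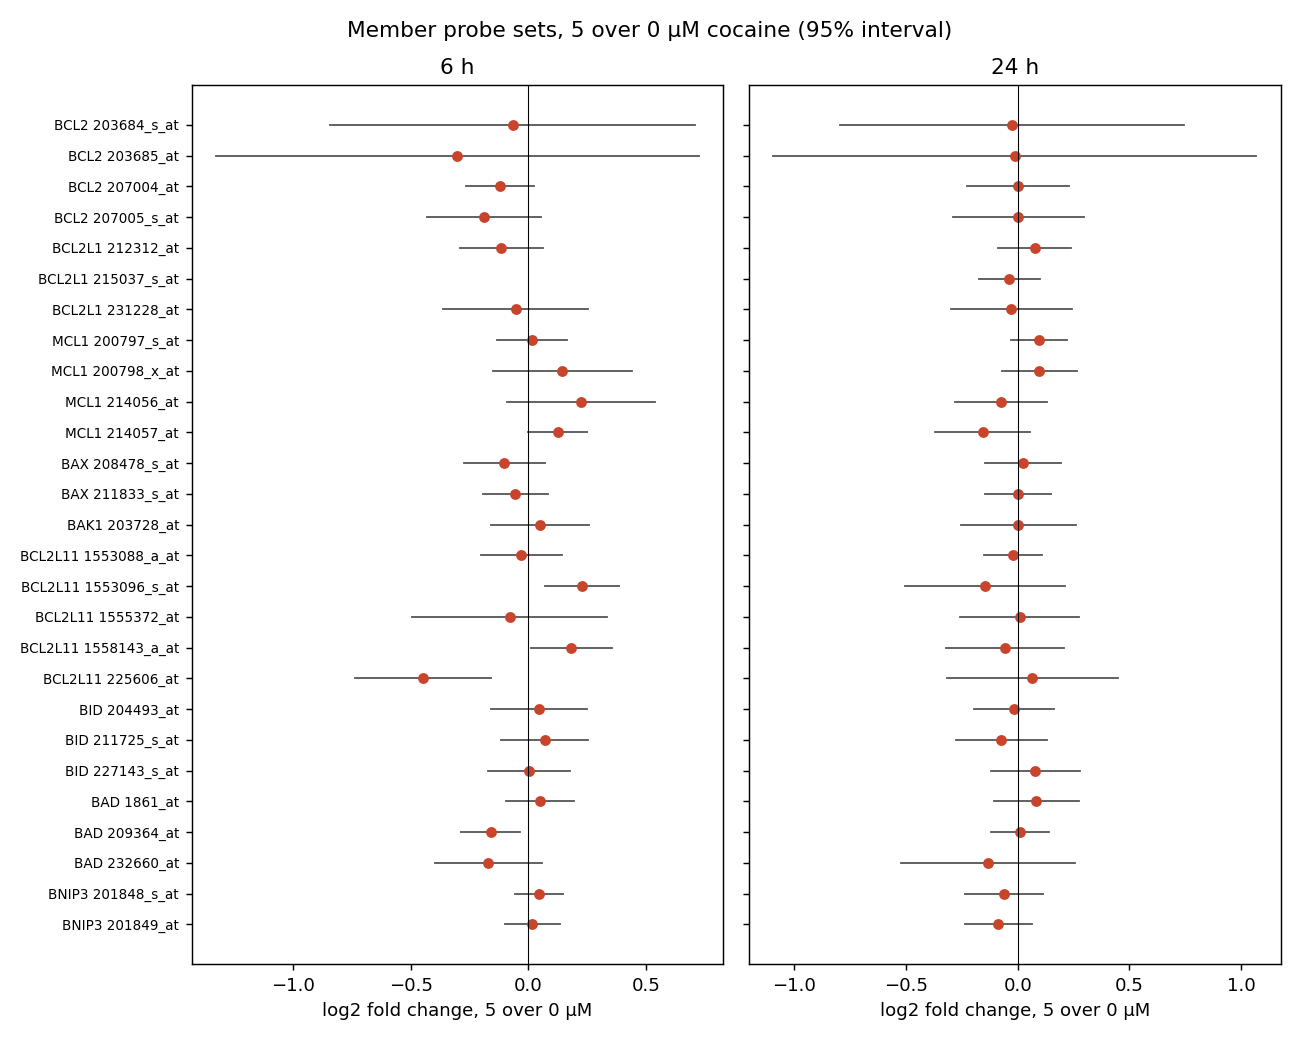
Log2 fold change of each kept member probe set, 5 over 0 μM, at 6 h (left) and 24 h (right), with the 95% interval of limma's fit on the 9 arrays of each time (3 per dose). The fit had no replicate block, so the intervals include the spread between replicate numbers. The 2 brightest BCL2 probe sets have the widest intervals at both times, and BCL2L11 has probe sets on both sides of 0 at 6 h, from -0.45 to 0.23.

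The values of 5 μM and untreated arrays did not overlap for 8 of the 26 probe sets at 6 h, 4 higher and 4 lower, which is 21.2% for all probe sets. Lower without overlap were 225606_at of BCL2L11, 209364_at of BAD, 208478_s_at of BAX and 207004_at of BCL2, and higher without overlap were 1553096_s_at and 1558143_a_at of BCL2L11, 201848_s_at of BNIP3 and 214057_at of MCL1. For 1 against 0 μM, where no probe set of the array passed (0%) and 3222 had an unadjusted p under 0.05, 0 of 26 members passed, 5 had an unadjusted p under 0.05 and 6 did not overlap, against 17.4% of all. With the replicate block, 5 members passed in that comparison, 3 higher and 2 lower, against 12.5% of all probe sets. They were 1553096_s_at (higher), 1558143_a_at and 225606_at (lower) of BCL2L11, and 214056_at and 214057_at (higher) of MCL1. With the block and without untreated arrays 2 and 3, 1 passed, against 8.6% of all, 1553096_s_at of BCL2L11, higher by 0.40 (adjusted p = 0.0770) than the 1 untreated array left, which was the lowest of all arrays for this probe set. Without the block, and without those arrays, 0 members and 0% of all probe sets passed for either dose.

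Cells at 5 and 1 μM were also compared with each other at 6 h, a comparison that does not use the untreated arrays. No member passed, as no probe set of the array did (0% of 22455, with 1448 at an unadjusted p under 0.05). The lowest adjusted p of a member was 0.393, and 4 members had an unadjusted p under 0.05. Of the 26 fold changes, 20 were below 0, with a median of -0.045 against -0.008 over all probe sets tested. In 6 members the doses did not overlap, 1 higher and 5 lower, against 13.5% of all.

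At 24 h, no member probe set passed in any comparison of doses. For 5 against 0 μM, 0 of 27 passed, where 0.0123% of 24307 probe sets did, none had an unadjusted p under 0.05 (1751 in all), and 0 of 27 did not overlap, against 10.4% of all. For 1 against 0 μM, 0 members passed, as did 0% of all, and none had an unadjusted p under 0.05 (819 in all). For 5 against 1 μM, 0 members passed, where 0.00823% of all did, and 1 had an unadjusted p under 0.05 (1488 in all). With the replicate block, 0 members passed in the 3 comparisons of 24 h. The largest fold change of 5 over 0 μM at 24 h was -0.16, of MCL1 214057_at.

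BCL2, the survival protein for which the family is named, varied more between replicates of a dose than between doses. Its brightest probe set, 203685_at, had log2 signals at 6 h of 9.87, 10.79 and 11.42 on arrays 1, 2 and 3 of untreated cells, 9.81, 10.57 and 11.06 at 1 μM, and 9.81, 10.48 and 10.89 at 5 μM. At 24 h it had 10.28, 10.63 and 11.77 in untreated cells, 10.46, 10.59 and 11.66 at 1 μM, and 10.48, 10.52 and 11.64 at 5 μM. In each dose and at both times, the array numbered 1 was the lowest and the array numbered 3 the highest, and the doses overlapped fully.

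The difference between replicate numbers 3 and 1 was 1.29 on the log2 scale at 6 h, a 2.45-fold difference, and 1.28 at 24 h, a 2.43-fold difference. In a test of the replicate number within limma, chosen after these values were seen, its adjusted p was 0.000494 at 6 h and 0.000218 at 24 h. That test called 27% of all probe sets at 6 h and 25.2% at 24 h, and by the range between replicate means BCL2 203685_at ranked 121 of 22455 at 6 h and 99 of 24307 at 24 h. The range between its dose means was 0.30 at 6 h and 0.02 at 24 h. The marker lists moved with the replicate numbers too. The mean of the 7 mesenchymal markers was 9.02 to 9.35 on the arrays numbered 3 and 9.66 to 9.73 on those numbered 1 at 6 h, and 9.52 to 9.92 and 10.08 to 10.13 at 24 h, with 5 of the 7 lower in number 3 at both times, among them COL1A1 (-1.35 at 6 h and -1.17 at 24 h), and FN1 and SNAI2 higher. Averaged over the 3 doses, the 4 genes induced by retinoic acid were all higher in number 3, at both times. At 6 h the difference was largest in untreated cells, where their mean was 10.93 in number 3 and 7.18 in number 1. It was 7.36 and 7.11 at 1 μM, and 7.35 and 7.18 at 5 μM. RARB alone was lower in number 3 at these 2 doses, with 7.99 against 8.12 and 8.05 against 8.32. The part of either list in the BCL2 values was not tested. The second probe set, 203684_s_at, moved with it, with a difference between numbers 3 and 1 of 0.97 at 6 h (adjusted p = 0.00157) and 0.80 at 24 h (adjusted p = 0.00110). The dim 207005_s_at had differences of 0.24 (adjusted p = 0.0927) and 0.35 (adjusted p = 0.00693), and 207004_at differed by 0.07 and -0.03 (adjusted p = 0.438 and 0.968).

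**Figure D2:**
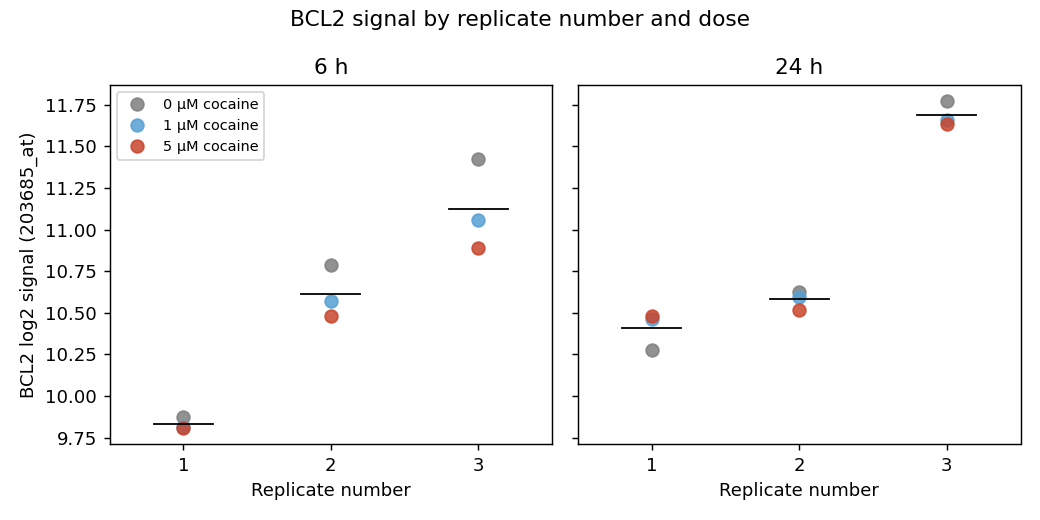
Log2 signal of BCL2 (203685_at) against the replicate number in the labels, at 6 h (left) and 24 h (right), with 1 point per array coloured by dose and a line at the mean of the 3 doses. Points of 1 number sit together whatever the dose, and number 3 is 1.29 and 1.28 above number 1.

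Set against that spread, the dose difference of BCL2 was small and rested on some of the pairs. Without the replicate block, the log2 fold change of 5 over 0 μM at 6 h was -0.30 (SE 0.45, adjusted p = 0.777). Its 95% interval was -1.33 to 0.72, and this SE and interval include the spread between replicate numbers. With the block over all arrays, which takes that spread out, this probe set passed, lower at 5 μM. Between arrays of the same number, 5 minus 0 μM was -0.06, -0.31 and -0.53 for numbers 1, 2 and 3 at 6 h, and 1 minus 0 μM was -0.06, -0.22 and -0.36. The largest 2 of these involve the untreated arrays with high CYP26A1, and with the block but without those arrays the fold change was -0.11 (adjusted p = 0.453). At 24 h, the same-numbered differences of 5 minus 0 μM were 0.20, -0.11 and -0.14, and the fold change was -0.01 (SE 0.48, adjusted p = 0.999).

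BCL2L11 encodes BIM, a BH3-only activator with many splice forms, and its probe sets did not move together at 6 h. The brightest, 225606_at, had log2 signals of 9.32, 9.78 and 9.88 in untreated cells, 9.26, 9.29 and 9.30 at 1 μM, and 9.19, 9.19 and 9.26 at 5 μM. The treated arrays lay within a narrow band, below all untreated arrays, of which arrays 2 and 3 stood far above array 1. The log2 fold change of 5 over 0 μM was -0.45 (SE 0.13, adjusted p = 0.137), and without untreated arrays 2 and 3 it was -0.10 (adjusted p = 0.582). Without untreated array 1 it was -0.62 (adjusted p = 0.00300). The same-numbered differences of 5 minus 0 μM were -0.13, -0.59 and -0.62. At 24 h, 225606_at had 9.73, 9.73 and 10.25 in untreated cells, 9.92, 9.69 and 10.04 at 1 μM, and 9.99, 9.74 and 10.18 at 5 μM, with a fold change of 0.06 (SE 0.17, adjusted p = 0.980).

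A second BCL2L11 probe set, 1553096_s_at, went the other way at 6 h. It had 6.35, 6.47 and 6.56 in untreated cells, 6.80, 6.66 and 6.70 at 1 μM, and 6.66, 6.67 and 6.74 at 5 μM. Both doses lay above untreated cells without overlap, and untreated array 1, with low CYP26A1, was the lowest of all. Its fold change was 0.26 for 1 over 0 μM (SE 0.07, adjusted p = 0.192) and 0.23 for 5 over 0 μM (SE 0.07, adjusted p = 0.152). Without untreated arrays 2 and 3 these were 0.37 (adjusted p = 0.220) and 0.34 (adjusted p = 0.251).

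Another probe set, 1558143_a_at, separated the doses of cocaine from each other. At 6 h it had 7.05, 7.12 and 7.12 in untreated cells, 6.94, 6.84 and 6.68 at 1 μM, and 7.35, 7.20 and 7.29 at 5 μM. Untreated cells lay between the 2 doses. Its difference of 5 over 1 μM, 0.46 (SE 0.08, 95% interval 0.29 to 0.63), was the largest of any member in that comparison and had an unadjusted p of 0.000210, but the adjusted p over all probe sets was 0.393, and 0.190 with the block. At 24 h the values of this probe set were 7.80, 7.58 and 8.12 in untreated cells, 7.76, 7.73 and 7.76 at 1 μM, and 7.75, 7.74 and 7.84 at 5 μM, and the doses overlapped. The dim probe sets 1553088_a_at and 1555372_at had fold changes of 5 over 0 μM at 6 h of -0.03 and -0.08. On untreated array 1 the second was at 5.15, below the 5.83 and 5.88 of untreated arrays 2 and 3. Without untreated arrays 2 and 3 the fold changes were 0.01 and 0.39.

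**Figure D3:**
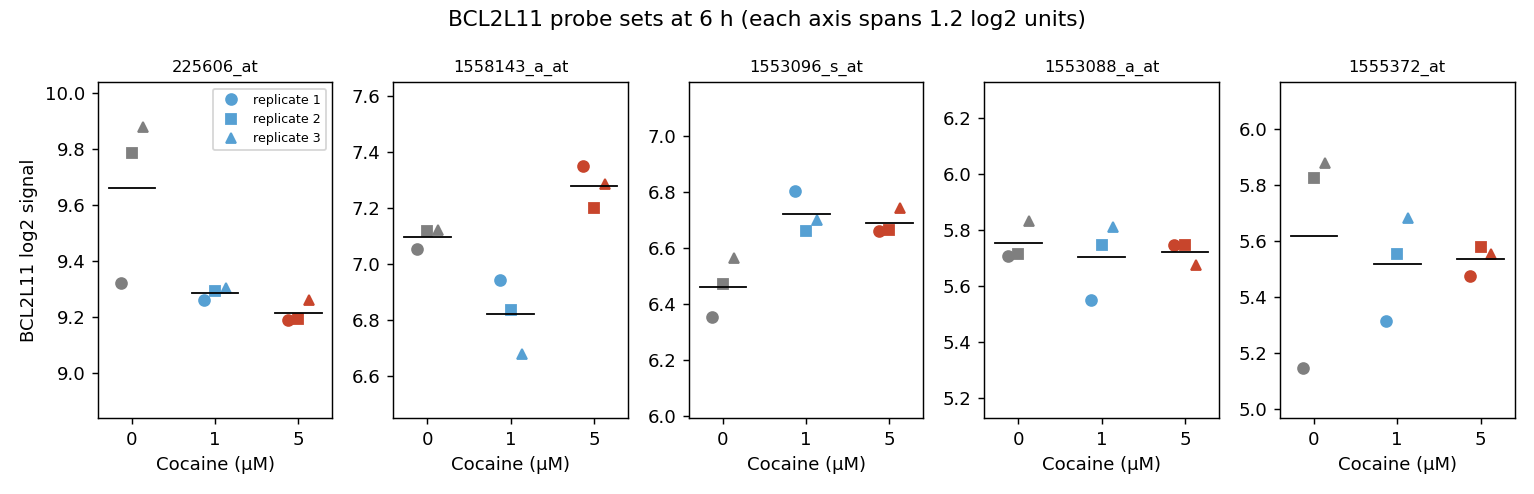
Log2 signal of the 5 kept BCL2L11 probe sets at 6 h by dose, with 1 point per array, the replicate number as the symbol and a line at the mean of each dose. Treated arrays lie below untreated ones for 225606_at and above them for 1553096_s_at, and for 1558143_a_at 1 μM lies lowest and 5 μM highest.

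Whether probe sets of 1 gene gave the same dose difference was tested on their log2 ratio to the brightest one, on each array. At 6 h, for 5 against 0 μM, 5 of the 17 member pairs passed, where 19.1% of the 9491 pairs of all genes did. All 4 pairs of BCL2L11 passed, with the difference relative to 225606_at being 0.67 for 1553096_s_at (adjusted p = 0.00821), 0.63 for 1558143_a_at (adjusted p = 0.0199), 0.37 for 1555372_at (adjusted p = 0.0391) and 0.42 for 1553088_a_at (adjusted p = 0.0578). The fifth was BAD 1861_at against 209364_at, with 0.21 (adjusted p = 0.0659). The 4 BCL2L11 pairs share 225606_at and are not independent. Without untreated arrays 2 and 3, 1 member pair passed, against 2.34% of all pairs, 1553096_s_at against 225606_at, with 0.44 (adjusted p = 0.0859), a difference from the 1 untreated array left. At 24 h, 0 of the 18 member pairs passed, against 0.00953% of all pairs, and the 4 of BCL2L11 had differences of -0.21 to -0.06. The difference in array signal between 3′ and 5′ probes of ACTB, a measure of RNA integrity, was 0.49 to 0.54 at 5 μM at 6 h. It was 0.55, 1.12 and 0.89 on untreated arrays 1, 2 and 3 of 6 h. The same measure for GAPDH at 6 h was 0.19 to 0.24 at 5 μM and 0.21 to 0.25 in untreated cells. At 24 h, that of ACTB was 0.69 to 1.03 at 5 μM and 0.49 to 0.65 in untreated cells. The part of RNA integrity in the pair differences was not tested.

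MCL1, a survival protein that is made and degraded within hours, was bright and even at its main probe set. At 6 h, 200797_s_at had 12.03, 11.89 and 11.85 in untreated cells, 12.0, 11.87 and 11.89 at 1 μM, and 11.99, 11.90 and 11.92 at 5 μM. All 3 doses overlapped, and the fold change of 5 over 0 μM was 0.01 (SE 0.06, 95% interval -0.13 to 0.16). A dimmer MCL1 probe set, 214057_at, had 7.45, 7.39 and 7.51 in untreated cells, 7.75, 7.63 and 7.72 at 1 μM, and 7.58, 7.59 and 7.56 at 5 μM. Both doses were above untreated cells without overlap, 1 μM more than 5 μM, with fold changes over 0 μM of 0.25 at 1 μM (adjusted p = 0.162) and 0.12 at 5 μM (adjusted p = 0.297). Without untreated arrays 2 and 3 these were 0.25 and 0.13. The other kept MCL1 probe sets did not hold their 1 over 0 μM values in that fit. There, 214056_at went from 0.32 over all arrays to -0.02, 200798_x_at from 0.01 to -0.29 and 200797_s_at from -0.003 to -0.11. The other survival gene, BCL2L1, had 7.69, 7.52 and 7.47 in untreated cells, 7.47, 7.47 and 7.40 at 1 μM, and 7.47, 7.32 and 7.54 at 5 μM. Its fold change of 5 over 0 μM was -0.11 (SE 0.08, adjusted p = 0.488), and -0.25 without untreated arrays 2 and 3.

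No probe set of the pore-forming members passed. BAX, which is also a target of p53, had at 208478_s_at, at 6 h, 8.75, 8.78 and 8.77 in untreated cells, 9.02, 8.87 and 8.72 at 1 μM, and 8.68, 8.70 and 8.61 at 5 μM. The 5 μM arrays lay below all others. The fold change of 5 over 1 μM was -0.21 (SE 0.08, adjusted p = 0.710), and that of the second probe set 211833_s_at was -0.16 (SE 0.06, adjusted p = 0.724), and against untreated cells they were -0.10 and -0.06. BAK1 had 6.63, 6.51 and 6.26 in untreated cells, 6.61, 6.51 and 6.44 at 1 μM, and 6.51, 6.51 and 6.52 at 5 μM, for a fold change of 5 over 0 μM of 0.05 (SE 0.09, adjusted p = 0.832).

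Of the remaining BH3-only genes, BAD, which binds BCL2 and BCL-XL, had at 209364_at, at 6 h, 8.50, 8.51 and 8.49 in untreated cells, 8.55, 8.40 and 8.43 at 1 μM, and 8.29, 8.38 and 8.34 at 5 μM. The 5 μM arrays were below all others, by 0.16 against untreated cells (SE 0.06, adjusted p = 0.199, and 0.485 at the same 0.16 without untreated arrays 2 and 3), and the 3 untreated arrays were nearly equal. BAD 1861_at did not share it, with 0.05, and the dim 232660_at had -0.17. BID, which caspase-8 cleaves to its active form, had fold changes of 0.00 to 0.07 in its 3 probe sets. BNIP3, a mitochondrial receptor for mitophagy that hypoxia induces, had at 201849_at 10.84, 10.95 and 10.97 in untreated cells, 10.98, 10.95 and 10.99 at 1 μM, and 10.91, 10.95 and 10.94 at 5 μM, with a fold change of 0.02 (SE 0.05, 95% interval -0.10 to 0.13).

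**Figure D4:**
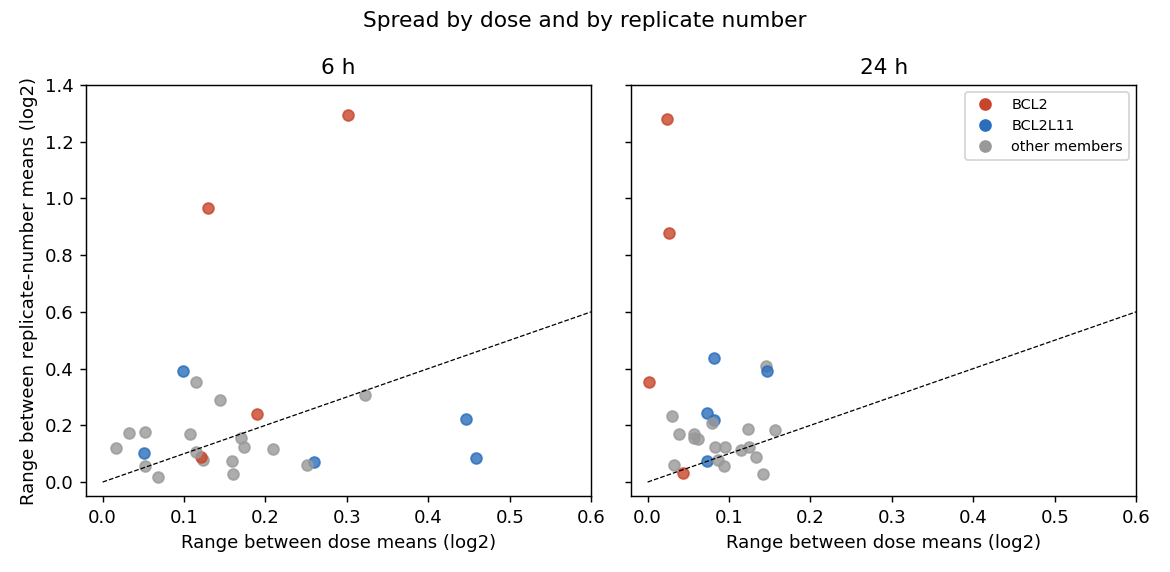
Range between the 3 dose means (x axis, log2) and range between the 3 replicate-number means (y axis, log2) of each kept member probe set at 6 h (left) and 24 h (right), with a dashed line where both are equal. The 2 brightest BCL2 probe sets lie far above the line at both times. BCL2L11 225606_at and 1558143_a_at have the widest dose ranges at 6 h, 0.45 and 0.46, and lie below the line. Other members also lie below it at 6 h, among them BAD 209364_at and MCL1 214057_at.

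The change at 5 μM was compared between 24 and 6 h for the 26 probe sets kept at both times. No member passed the test of the difference (4.21% of 22358 probe sets did), and the lowest adjusted p was 0.223. With the replicate block 3 passed, against 15.9% of all: BCL2L11 225606_at (0.51, adjusted p = 0.0439), BCL2L11 1553096_s_at (-0.37, adjusted p = 0.0631) and MCL1 214057_at (-0.28, adjusted p = 0.0693). Without untreated arrays 2 and 3 of 6 h, 0 members passed (1.48% of all), and with the block in addition 1 did (7.9% of all), 1553096_s_at with -0.51 (adjusted p = 0.0947). The differences in that fit were 0.19 for 225606_at (adjusted p = 0.420) and -0.31 for 214057_at (adjusted p = 0.189).

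The genes that surround the members were counted from lists of other BCL2 family genes, of the apoptosome and caspases, of death receptors and of regulators of BCL2 family proteins. For 5 against 0 μM at 6 h, at any probe set, 1 of the 9 other family genes measured fell and 0 rose. Of 14 apoptosome and caspase genes and of 6 death receptor genes 0 passed, and among 18 regulators 1 rose and 2 fell. Of all single probe sets 2.98% passed. Here and below, genes are counted at any of their probe sets, so a share of single probe sets is not on the same scale. The lists had 14, 34, 19 and 48 probe sets at 6 h. The median fold changes at the brightest probe sets were -0.06, -0.06, -0.04 and -0.09 in this order, against -0.03 over 11943 genes. In the other 5 comparisons, no gene of the 4 lists passed in limma's test. With the replicate block, where 18.6% of all probe sets passed, 3 of the other family genes had a probe set that rose and 3 one that fell, and some genes had both. These numbers were 3 and 3 for the apoptosome and caspases, 2 and 0 for the death receptors, and 2 and 6 for the regulators. For 1 against 0 μM at 6 h with the block, where 12.5% passed, the numbers that rose and fell were 2 and 2, 0 and 3, 1 and 0, and 2 and 7 in the same order of lists, and in the other 4 comparisons no gene of these lists passed with the block.

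FOXO3, the transcription factor that activates BCL2L11, fell, with log2 signals at 224891_at of 11.79, 11.65 and 11.56 at 5 μM against 11.90, 12.12 and 12.11 in untreated cells (-0.38, SE 0.08, adjusted p = 0.0820). The highest values were those of untreated arrays 2 and 3. BECN1, an autophagy protein that BCL2 binds, fell at 208946_s_at by 0.29 (SE 0.06, adjusted p = 0.0645), with 9.20, 9.13 and 9.09 at 5 μM against 9.46, 9.48 and 9.35 in untreated cells. Its second probe set, 208945_s_at, had a fold change of 0.20 (adjusted p = 0.172), in the other direction. BAG6, a chaperone involved in protein quality control, fell by 0.30 (adjusted p = 0.0689). VDAC3, a channel of the outer mitochondrial membrane, rose by 0.37 (adjusted p = 0.0432) at 208844_at. Its other probe sets tested, 208845_at and 208846_s_at, did not pass, with or without the replicate block. The signal of 208844_at was close to the threshold, with 5.54, 5.56 and 5.45 at 5 μM against 5.22, 5.08 and 5.13 in untreated cells. Without untreated arrays 2 and 3, no probe set of the array passed, these included. The fold changes in that fit were -0.24 for FOXO3 224891_at, -0.32 for BECN1 208946_s_at, -0.30 for BAG6 213318_s_at and 0.29 for VDAC3 208844_at (adjusted p = 0.412, 0.248, 0.272 and 0.251). That of FOXO3 moved most, and those of BECN1 and BAG6 stayed about as large.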

How the data were processed

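The deposited values are log2 signals that the authors made with RMA in the affy library (background correction, normalization and median polish), apparently for each time separately. The submitters' processing notes name RMA and limma, and the versions are not given in the sources used here. Labels of 5 μM samples include wording meant for untreated controls, and their stated dose was taken. Probe sets were named from the platform annotation, with current symbols from RefSeq (GRCh38.p14): 41091 had 1 symbol, 1801 several and 11783 none. Those with several symbols entered the tests without being named.

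Members and lists were chosen with earlier results of these data known. The 10 members are described by all their probe sets, with values per array for the brightest of each gene, and for others that were named after their values were seen. For each list, up to 3 genes in each direction past the threshold were named. Following the study's methods, probe sets were tested if they had a symbol and averaged above log2(40) at that time, on 9 arrays, with limma 3.58.1 in R 4.3.3 (lmFit and eBayes, Benjamini-Hochberg adjustment, adjusted p under 0.10). The contrast between times used all 18 arrays. The fits were tested on simulated data. Where the labels do not state that pools came from separate experiments, p-values measure only the spread between these arrays, and 3 arrays per dose limit the precision.

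The doses share replicate numbers in the labels. After dose means were subtracted, same-numbered arrays correlated at 0.377 to 0.768 across doses for 6 h, with 0.424 to 0.733 for 24 h (9 pairs at each time). Differently numbered ones lay between -0.632 and 0.0711 (6 h) or -0.575 and 0.165 (24 h), over 18 pairs. Subtracting means of 3 arrays lowers these correlations where the same-numbered ones are high, so they are not separate support. The pairing by number thus rests on the same-numbered correlations. The fit with the replicate block was an alternative, beside other signal filters and subsets of arrays, array weights, a variance trend, median centring, quantile normalization, a threshold of 0.05, the brightest probe set of each gene alone, and omission of single arrays. The fits without untreated arrays 2 and 3 of probe set pairs, of the difference between times, and with the block, and the test of the replicate number were added after seeing the data.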

Additional observations from a re-analysis of the deposited data

Results flagged for a closer look

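No member passed the test of the difference between the changes at 5 μM at 24 and 6 h in the fit without the replicate block, and 4 member probe sets stood out by other measures. BCL2L11 225606_at, with 0.51 (24 h minus 6 h), BCL2L11 1553096_s_at, with -0.37, and MCL1 214057_at, with -0.28, passed with the replicate block. With the block but without untreated arrays 2 and 3 of 6 h, these differences were 0.19, -0.51 and -0.31, and 1553096_s_at alone passed (adjusted p = 0.0947). The same-numbered differences of 5 minus 0 μM for 225606_at were 0.26, 0.01 and -0.07 at 24 h and -0.13, -0.59 and -0.62 at 6 h. BNIP3 201848_s_at was lower at 5 μM in each same-numbered pair at 24 h and higher in each at 6 h, with a difference of -0.11 whose adjusted p was 0.622 (0.308 with the block).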

How the results depend on the processing

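The arrays are few, and a p that misses the threshold does not show that members did not change. With the replicate block, members called were 3 for 5 against 0 μM at 6 h, 5 for 1 against 0 μM at 6 h and 3 for the difference between times, and array weights gave 2 and 4 in the first 2. Leaving out single arrays gave 0 to 2, 0 to 3 and 0 to 2 in these 3 results, the highest without untreated array 1 of 6 h. With the block and without untreated arrays 2 and 3, 1 member passed for 1 against 0 μM and 1 for the difference between times. The block changed no other member count from 0. Member pairs called at 6 h (5) became 2 with the filter at log2(100), 3 at an adjusted p under 0.05, 1 without untreated arrays 2 and 3, and 2 to 7 when 1 array was left out, the lowest without array 2 of 5 μM and the highest without untreated array 1. All probe sets called for 5 against 0 μM at 6 h were 670, and 4184 with the block, 3309 with array weights, 1437 with all 18 arrays, 131 with 6 arrays, 104 at 0.05, 96 with 1 probe set per gene, and 0 to 2432 without 1 array. For 1 against 0 μM at 6 h, 2818 passed with the block, 1009 with weights and 541 with 18 arrays. Pairs of all genes at 6 h were 2762 with the block and 222 without untreated arrays 2 and 3.

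Signs were followed at the brightest probe set of each member. No member passed in the fit without the block, so no called member could turn there. BCL2 203685_at, called with the block, is among those that turned in fits without the block. With the block and without untreated arrays 2 and 3 of 6 h it stayed below 0, at -0.106. For 5 over 0 μM at 6 h, signs turned for BNIP3 (-0.00146) with array weights, BID (-0.0198), BNIP3 (-0.00511) and MCL1 (-0.00822) with median centring, BAK1 (-0.112), BCL2 (0.520), BID (-0.0536) and MCL1 (-0.0936) without untreated arrays 2 and 3, which leaves 1 untreated array of the lowest BCL2 number, and BAK1 (-0.0680), BID (-0.0395) and MCL1 (-0.0282) with the block in addition. Without 1 array, the ranges were -0.0548 to 0.127 for BAK1, -0.712 to 0.0626 for BCL2, -0.0496 to 0.0576 for BID, -0.0230 to 0.0410 for BNIP3 and -0.0216 to 0.0672 for MCL1. At 24 h, BCL2 was 0.0107 with weights and BAK1 -0.00773 with quantile normalization, and without 1 array the ranges were -0.0245 to 0.0345 for BAD, -0.135 to 0.0946 for BAK1, -0.0102 to 0.0655 for BAX, -0.392 to 0.426 for BCL2 and -0.0408 to 0.240 for BCL2L11. The cause was not tested.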

Other observations

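The difference between replicate numbers seen for BCL2 was shared by other genes, which were chosen after their values were seen, by the smaller of the differences at 6 and 24 h among those past the test of the replicate number. By that smaller difference, over all 21340 probe sets with a symbol, past the test or not, BCL2 203685_at ranked 18. Higher in replicate 3 than in replicate 1 at 6 and 24 h were SSTR2, a somatostatin receptor, by 2.53 and 2.65 on the log2 scale, CALCB, a calcitonin gene-related peptide, by 1.55 and 1.68, CRTAC1 by 2.00 and 1.54, the transcription factor CUX2 by 1.52 and 1.52, and KCTD16 by 1.51 and 1.58. Lower in replicate 3 were SOX2, a transcription factor of neural progenitors, with differences of -4.43 and -3.68, the potassium channel KCNJ2 -4.23 and -3.53, ARHGAP36 -3.48 and -3.78, DLK1, a Notch ligand relative found in neuroendocrine tumours, -3.06 and -2.98, and NRP1, a semaphorin receptor, -3.31 and -2.39. The labels call the numbers biological replicates and do not state how the cultures of different numbers differed.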
